A study of Homo sapiens with 20 samples.

Results

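Cohesin is a ring-shaped protein complex that holds sister chromatids together and folds interphase DNA into loops. RAD21 closes the ring, and each complex carries either SA1 or SA2 (the products of STAG1 and STAG2) as its further subunit. As loops grow, cohesin is commonly halted at DNA bound by the zinc-finger protein CTCF, and it is also found at active promoters and enhancers. The regions described here are the stretches of the human genome where RAD21 peaks of CHM13 cells lay most densely. Chromosomes 1 to 22 and X of the hg38 build were divided into fixed 100-kb bins from the first base, each RAD21 peak was assigned to the bin that held its centre, and bins with 10 or more peaks were called crowded. Of 30321 bins, 839 were crowded. They were therefore chosen by their RAD21 counts, and those counts are given as a description and support nothing.

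RAD21, SA1 and SA2 were profiled by ChIP-seq, in which DNA bound to a protein is recovered with an antibody and sequenced. The CHM13 line was established from a complete hydatidiform mole. The RPE-1 line came from retinal pigmented epithelium. Each carries telomerase (hTERT), and the labels name no treatment. There were 3 libraries of each subunit and of total chromatin in CHM13 cells and 2 of each in RPE-1 cells, 20 in all. The authors merged the replicates into 1 list of positions for each line and subunit.

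The lists give neither heights nor per-replicate calls, so the depth behind a peak is not known from them. The paper reports fewer reads for the RPE-1 ChIP libraries than for the CHM13 ones, apart from a shallow CHM13 RAD21 replicate. A locus had to recur in 2 replicates, out of 3 in CHM13 cells and 2 in RPE-1 cells. No test between replicates was possible, and the intervals below are 95% intervals that cover counting error only. They treat peaks and bins as independent, although neighbouring bins resemble each other. On the chromosomes used, the CHM13 lists held 73739 RAD21, 38153 SA1 and 44374 SA2 peaks. The RPE-1 lists were shorter, with 14939 RAD21, 10707 SA1 and 6389 SA2 peaks. The lines were profiled with different RAD21 antibodies but the same SA1 and SA2 antibodies. The paper also describes different sonicators for the lines, and Drosophila chromatin added as a control for CHM13 cells. Cell line, these steps and the yield of each list cannot be told apart, and for RAD21 neither can the antibody. The lists carry no gene activity, so neither line could be checked against its marker genes.

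The sequences below are chosen examples of peaks in the most crowded bins. All but the last were picked because they hold a motif, so they do not show the typical peak. All are 80 bases of hg38 written 5′ to 3′. The first comes from a RAD21 peak shared by all 6 lists, with a match to the CTCF core motif in capitals. This peak on chromosome 6 lay outside protein-coding genes.
chr6:44096856-44096935, plus strand: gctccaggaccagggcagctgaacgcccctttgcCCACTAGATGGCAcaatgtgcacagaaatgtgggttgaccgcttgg

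The next sequences come from RAD21 peaks that overlapped SA1 and SA2 peaks of CHM13 cells and no peak of any RPE-1 list. Capitals mark TGACTCA or its reverse complement TGAGTCA, the letters recognised by AP-1, the family of FOS and JUN dimers. This motif was looked for after the crowded bins had been seen, and a match is a description, not a binding site. The peak on chromosome 1 lay outside protein-coding genes in the bin with the most RAD21 peaks. That on chromosome 2 lay outside protein-coding genes in the next most crowded bin. The peaks on chromosomes 11 and 14 lay in introns of MAML2, a Notch co-activator, and of PRKCH, a protein kinase C.
chr1:172918090-172918169, plus strand: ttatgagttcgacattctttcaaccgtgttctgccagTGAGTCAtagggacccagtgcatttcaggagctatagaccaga
chr2:215602208-215602287, plus strand: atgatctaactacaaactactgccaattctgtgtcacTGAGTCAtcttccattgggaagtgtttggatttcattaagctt
chr11:96200335-96200414, plus strand: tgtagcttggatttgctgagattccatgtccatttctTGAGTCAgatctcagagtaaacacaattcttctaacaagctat
chr14:61524673-61524752, plus strand: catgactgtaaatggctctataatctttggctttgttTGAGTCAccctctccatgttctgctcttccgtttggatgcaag

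The last sequence stands at the centre of a RAD21 peak within DANT1 and DANT2 on the X chromosome, in the crowded bin with the most RPE-1 peaks. It carries no capitals because it holds neither motif. The same 80 bases recurred without a mismatch in 16 of the 19 RAD21 peaks of that bin.
chrX:115844253-115844332, plus strand: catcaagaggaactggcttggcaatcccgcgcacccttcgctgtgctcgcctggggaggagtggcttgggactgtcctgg

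The crowded bins were 2.77% of all bins and held 9767 of the 73739 RAD21 peaks, or 13.2%. They carried 11.6 peaks on average, with a median of 11 and a maximum of 21. The other bins held fewer by definition, with 10022 bins at 0 peaks, 16144 at 1 to 5 and 3316 at 6 to 9. Bins with 1 to 5 peaks serve as the comparison below, at 2.51 peaks on average. At the threshold, 292 bins had 10 peaks and 472 had 9. These neighbours were alike in the other lists, with 3.75 SA1, 5.23 SA2 and 1.08 RPE-1 RAD21 peaks per bin at 10, and 3.48, 4.78 and 1.11 at 9.

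**Figure D1:**
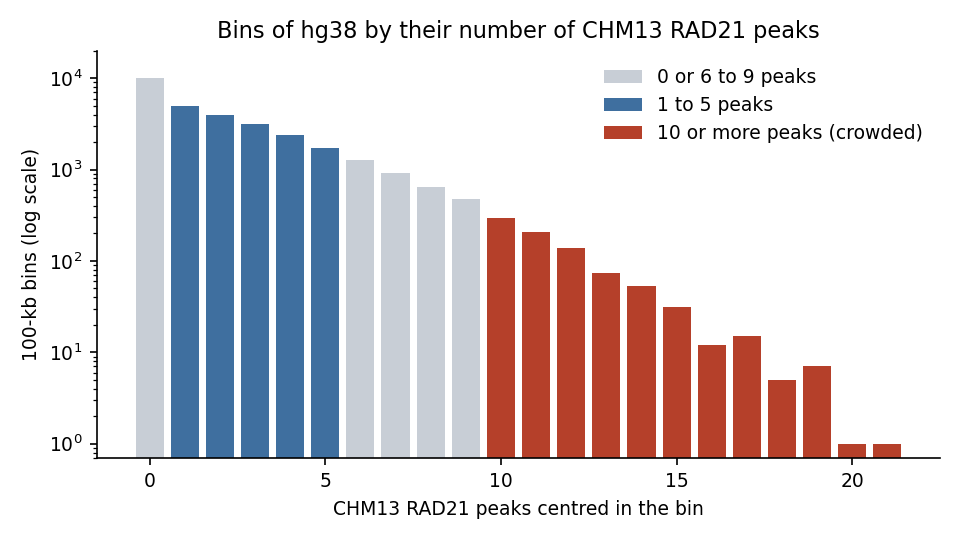
Number of 100-kb bins (y axis, log scale) by the number of CHM13 RAD21 peaks centred in them (x axis). Counts of bins fall from 10022 at 0 peaks to 292 at 10, and 839 bins lie at 10 or more with no gap at the threshold.

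Within crowded bins the peaks were spread through the bin. The median distance between the centres of neighbouring peaks was 5520 bp, against 15433 bp in bins with 1 to 5 peaks, and 46.1% of distances were under 5 kb against 20.6%. From first to last centre, peaks spanned a median of 84.5 kb and covered 10.4 kb of the 100 kb. Closer peaks follow from the rule, which did not use their width. RAD21 peaks were 790 bp wide at the median in crowded bins and 698 bp in bins with 1 to 5. It was 1054 bp for crowded-bin peaks that overlapped both SA1 and SA2 and 634 bp for those that overlapped neither.

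SA1 and SA2 were listed from libraries of their own, so their counts were not used by the rule. They came from the same line, however, and their peaks mostly lay on RAD21 peaks. In crowded bins there were 3594 SA1 and 5059 SA2 peaks, and 3447 and 4858 RAD21 peaks overlapped them. A rise of SA1 and SA2 with the RAD21 count is thus partly built in. Crowded bins had 4.28 SA1 peaks per bin (4.14 to 4.43) against 1.50 in bins with 1 to 5 RAD21 peaks, a ratio of 2.86 (2.76 to 2.96). SA2 stood at 6.03 (5.86 to 6.20) against 1.61, a ratio of 3.75 (3.63 to 3.86). Both ratios were below that of RAD21, 4.65, which the rule set. Both subunits were present in 823 of the 839 bins, 15 bins lacked an SA1 peak and 1 lacked an SA2 peak.

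SA2 peaks outnumbered SA1 peaks in 650 crowded bins, or 77.5%, were equal in 103 and fewer in 86. In bins with 1 to 5 RAD21 peaks, SA2 led in 22.6% and SA1 in 15.2%, and the rest were tied. The SA2 list was also the longer of the pair, and small counts tie more often, so these shares depend on the list lengths. The means did separate with RAD21 count. At 1 RAD21 peak the bins held 0.771 SA1 and 0.739 SA2 peaks, and at 15 or more 5.90 and 8.11.

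Peak by peak, RAD21 peaks of crowded bins were accompanied less often. SA1 overlapped 35.3% of them (34.4 to 36.2) by at least 1 base, against 56.0% in bins with 1 to 5 peaks. SA2 overlapped 49.7% (48.7 to 50.7) against 61.5%. Both subunits overlapped 31.9% against 50.0%, SA2 without SA1 17.9% against 11.5%, and neither 46.8% against 32.5%. Crowded bins therefore had more SA1 and SA2 peaks per bin but a lower share of RAD21 peaks with them. Bins with 6 to 9 peaks lay between, at 36.0% with both and 43.0% with neither.

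The RPE-1 lists come from other cells and other libraries. Of crowded bins, 56.4% held at least 1 RPE-1 RAD21 peak, against 45.4% of bins with 1 to 5 and 33% of all bins. RPE-1 RAD21 stood at 1.04 peaks per crowded bin (0.971 to 1.11) against 0.634, a ratio of 1.64 (1.53 to 1.76). RPE-1 SA1 stood at 0.704 against 0.459 with a ratio of 1.54 (1.41 to 1.67), and RPE-1 SA2 at 0.455 against 0.273 with a ratio of 1.67 (1.50 to 1.85). Against bins with 6 to 9 CHM13 RAD21 peaks, the RPE-1 RAD21 ratio was 0.954 (0.885 to 1.03), a comparison chosen after seeing the data.

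RPE-1 counts thus levelled off well before the crowded bins. RPE-1 RAD21 peaks per bin were 0.291 at 1 CHM13 RAD21 peak, 0.965 at 4, 1.10 at 6, 1.11 at 9 and 1.08 at 10. Beyond that they were 0.861 at 11, 1.06 at 12, 1.46 at 13, 0.925 at 14 and 1.03 at 15 or more. Repeat-bearing bins of the X chromosome, described below, raise some of these means. The DANT1/DANT2 bin, among the 72 bins at 15 or more, held 18 RPE-1 RAD21 peaks, and the FIRRE bin, at 13, held 9. Over the same steps SA1 and SA2 of CHM13 cells went on rising, which is partly built in because their peaks mostly lay on RAD21 peaks. RPE-1 RAD21 overlapped 8.73% of RAD21 peaks in crowded bins against 24.7% in bins with 1 to 5. All 5 other lists overlapped 2.97% against 8.04%. Whether the peaks missing from RPE-1 were absent or fell short of being called was not tested, since the RPE-1 list was shorter throughout.

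**Figure D2:**
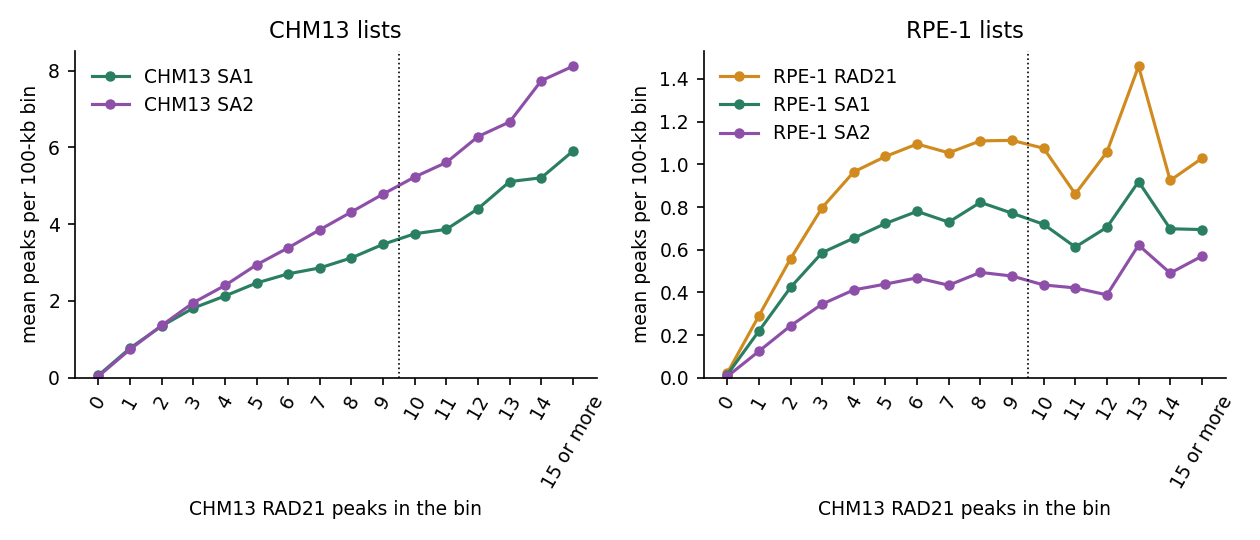
Mean peaks per 100-kb bin of the other 5 lists (y axes, on different scales) by the number of CHM13 RAD21 peaks in the bin (x axes), with CHM13 lists on the left and RPE-1 lists on the right. The dotted line marks 10 peaks. SA1 and SA2 of CHM13 rise to 5.90 and 8.11 at 15 or more, while RPE-1 RAD21 is 1.10 at 6 and 1.03 at 15 or more. The last value includes the DANT1/DANT2 bin, which held 18 RPE-1 RAD21 peaks.

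No peak of any RPE-1 list lay in 334 crowded bins, or 39.8% (36.6 to 43.2), against 47.3% of bins with 1 to 5 peaks. The share was 34.1% in bins with 6 to 9 and 97.2% in bins with no CHM13 RAD21 peak. For RPE-1 RAD21 alone, 56.4% of crowded bins and 33% of all bins held a peak. Crowded bins thus lacked RPE-1 RAD21 peaks less often than bins in general. Read from the RPE-1 side, 51 bins held 5 or more RPE-1 RAD21 peaks and 14 of them, or 27.5%, were crowded in CHM13 cells, compared with 2.77% of all bins. At 3 or more RPE-1 RAD21 peaks, 104 of 1068 bins, or 9.74%, were crowded.

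The letters beneath the peaks were searched next. In the 500 bp about the peak centre, 2.74% of RAD21 peaks in crowded bins held a match to the CTCF core, a 13-base pattern searched on both strands, against 11.2% in bins with 1 to 5 and 0.204% of all 500-bp windows of the genome. A looser 12-base CTCF pattern, added after seeing the data, was found in 6.86% against 21.6%, with 1.26% of all windows. Per bin, peaks with a core match numbered 0.319 in crowded bins and 0.281 in bins with 1 to 5, whereas peaks without one numbered 11.3 and 2.22. The patterns are strict, and a peak without a match may still be bound by CTCF.

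AP-1 letters went the other way. TGACTCA, on either strand, lay in 30.5% of RAD21 peak windows in crowded bins (29.6 to 31.5), in 27.0% in bins with 6 to 9, in 18.1% in bins with 1 to 5 and in 7.40% of all windows. All 500-bp windows of crowded bins, peaks or not, held it in 8.97%. TGANTCA, which includes TGACTCA and was searched first, lay in 41.7%, 37.5%, 26.6% and 14.8% in the same order. Both motifs divided by presence in RPE-1 in every class of bins with peaks. In crowded bins, among the 954 peaks that overlapped an RPE-1 list, 18.2% had a CTCF core and 10.0% had TGACTCA. Among the 8813 that overlapped none, 1.07% had a CTCF core and 32.8% had TGACTCA. In bins with 1 to 5 peaks, the CTCF core lay in 22.9% of peaks in an RPE-1 list and 6.41% of those in none, and TGACTCA in 7.47% and 22.4%. In bins with 6 to 9, the CTCF core lay in 18.5% and 2.31%, and TGACTCA in 9.71% and 30.6%.

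The company of SA1 and SA2 gave a like but smaller split. In crowded bins, TGACTCA lay in 21.9% of the 3111 peaks with both subunits and in 34.4% of the 4573 with neither. The CTCF core lay in 6.88% and 0.569%. Within each of these classes the CTCF share was lower and the TGACTCA share higher in crowded bins than in bins with 1 to 5 peaks, where peaks with both subunits held them in 17.5% and 10.2%.

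Other letters were searched likewise after the bins had been seen. ACATTCC, bound by TEAD factors of the Hippo pathway, lay in 12.7% of crowded-bin peaks, 9.42% in bins with 1 to 5 and 7.87% of all windows. TGTGGTT, bound by RUNX factors, lay in 15.3%, 11.9% and 9.34%. AGATAAG, bound by GATA factors, lay in 7.29%, 6.36% and 7.04%. GCCNNNGGC, bound by TFAP2 factors, lay in 12.1%, 15.7% and 7.12%.

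**Figure D3:**
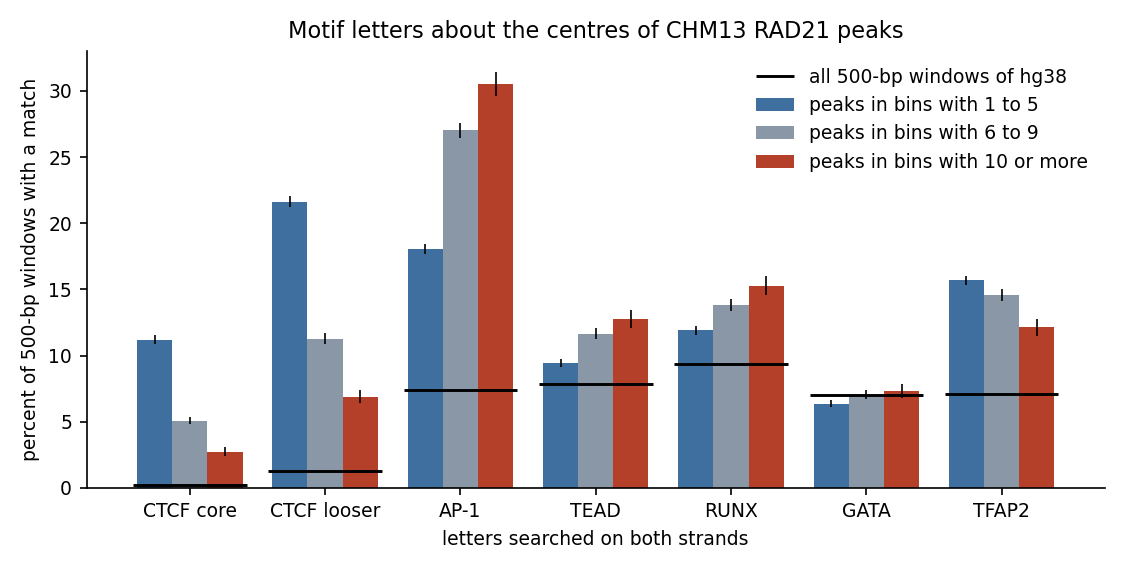
Percent of 500-bp windows about CHM13 RAD21 peak centres that hold each set of letters (y axis), in bins with 1 to 5, 6 to 9 and 10 or more peaks. Error bars are 95% Wilson intervals and black lines give the share of all 500-bp windows of hg38. CTCF shares fall with crowding, from 11.2% to 2.74% for the core, and AP-1 letters rise from 18.1% to 30.5%.

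The 14 bins with 18 or more RAD21 peaks show the range of these places. The most crowded was chr1:172900001-173000000, with 21 RAD21, 10 SA1 and 13 SA2 peaks of CHM13 cells and none in any RPE-1 list. It overlapped no protein-coding gene, and the nearest was TNFSF18, a tumour necrosis factor family ligand, 39.2 kb away. It held 1 peak with a CTCF core match and 7 with TGACTCA.

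The second was chr2:215600001-215700000, which overlapped the lncRNA genes LINC00607 and ENSG00000237525, with 20 RAD21, 10 SA1 and 14 SA2 peaks, 1 RPE-1 RAD21 peak and no other RPE-1 peak. Its nearest protein-coding gene was FN1, which encodes the matrix protein fibronectin, 164 kb away. An adjoining pair of bins, chr15:39100001-39300000, held 19 and 18 RAD21 peaks, with SA1 at 14 and 10 and SA2 at 11 and 12. It overlapped lncRNA genes and no protein-coding gene. The nearest coding gene, THBS1 for the secreted glycoprotein thrombospondin 1, lay 381 and 281 kb from the 2 bins.

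Several of the most crowded bins overlapped coding genes and were empty in all RPE-1 lists. The bin at CDC42EP3, an effector of the CDC42 GTPase, held 19 RAD21, 7 SA1 and 9 SA2 peaks, and coding genes covered 58.1% of it. ETS1, a transcription factor, overlapped 41.2% of a bin with 19, 8 and 14. PRKCH and the coding gene ENSG00000258989 overlapped a bin with 19, 7 and 9. MAML2 covered the whole of its bin, with 19, 4 and 7.

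In others RAD21 peaks far outnumbered those of both SA subunits. COL4A1 and COL4A2, the paired genes of basement membrane collagen that start beside each other, shared chr13:110300001-110400000 with 19 RAD21, 2 SA1 and 5 SA2 peaks and no RPE-1 peak. MICAL2, an actin-oxidising enzyme, covered a bin with 18, 1 and 5 and likewise no RPE-1 peak. Of those 18 peaks, 8 held TGACTCA and 0 a CTCF core.

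Other bins with 18 peaks were shared with RPE-1. The bin at SUSD1 on chromosome 9 had 10 SA1 and 12 SA2 peaks of CHM13 cells and 5 RAD21, 4 SA1 and 1 SA2 peak of RPE-1 cells. The bin of the lncRNA gene SCIRT, 13.5 kb from MRPL14, had 6 and 11 in CHM13 and 3, 3 and 1 in RPE-1. The SCIRT bin held the shared CTCF-core peak printed above.

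The bin chrX:115800001-115900000 was unlike the others. It held 19 RAD21, 19 SA1 and 19 SA2 peaks of CHM13 cells and 18 RAD21, 9 SA1 and 18 SA2 peaks of RPE-1 cells, the most of any crowded bin in RPE-1. It lies in DANT1 and DANT2, non-coding genes of the DXZ4 macrosatellite, a tandem repeat known for CTCF binding on the inactive X chromosome. Its GC content was 59.4%. Neighbouring centres were 2984.5 bp apart at the median, and 13 of 18 distances were between 2900 and 3100 bp. No peak held a strict CTCF core match or TGACTCA. Since 16 peaks share the 80 bases printed above, reads from the copies may not be placed uniquely, and the counts of this bin follow the copies in the assembly.

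FIRRE, a lncRNA gene with repeats of its own, lay in chrX:131700001-131800000, the crowded bin with the second-highest RPE-1 RAD21 count. It held 13 RAD21, 15 SA1 and 13 SA2 peaks in CHM13 and 9 RAD21, 1 SA1 and 16 SA2 peaks in RPE-1. Together the DANT1/DANT2 and FIRRE bins held 34 of the 382 RPE-1 SA2 peaks in crowded bins. Without them, in a comparison added after seeing the data, the RPE-1 RAD21 ratio was 1.59 (1.48 to 1.71). That of RPE-1 SA1 was 1.51 (1.39 to 1.65), and SA2 gave 1.52 (1.36 to 1.70). The next crowded bin by RPE-1 RAD21 was that of LZTS2, PDZD7, SFXN3 and KAZALD1 on chromosome 10, with 7. The rest of the 14 crowded bins with 5 or more tied at 5, among them the SUSD1 bin and the bin of BCL9L, UPK2, FOXR1 and CENATAC on chromosome 11.

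Protein-coding genes of GENCODE started less often in crowded bins than in bins with 1 to 5 peaks. There were 0.602 starts per crowded bin (0.551 to 0.657) against 0.883 in bins with 1 to 5 peaks, a ratio of 0.681 (0.622 to 0.745). No coding gene started in 62.7% of crowded bins against 53.6%. Over all bins the share was 64.6%, with 0.659 starts per bin, so crowded bins were near the genome as a whole. Bins with no RAD21 peak had 0.208 starts per bin. Long non-coding RNA genes went the other way, at 0.949 starts per bin against 0.706, a ratio of 1.34 (1.25 to 1.44). All gene types together gave 0.914 (0.872 to 0.957). Coding starts per bin did not follow the RAD21 count in one direction, with 0.604 at 1 peak, 1.15 at 4, 0.702 at 10 and 0.306 at 15 or more.

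Coding genes nonetheless overlapped most crowded bins. No coding gene overlapped 221 of them, 26.3% (23.5 to 29.4), against 27.1% of bins with 1 to 5 and 38.4% of all bins. Coding genes covered 54.1% of their bases against 49.9%. The 847 coding genes that overlapped crowded bins had a median length of 90.3 kb against 27.5 kb for all coding genes, and 47.0% of them exceeded 100 kb against 18.3%. Long genes overlap more bins of any kind, so the lengths of the 505 genes that start there are the closer comparison, with a median of 41.8 kb and 28.9% over 100 kb.

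A lower share of the peaks lay at promoters. Of RAD21 peaks in crowded bins, 3.20% were centred within 1 kb of a coding gene start against 8.91% in bins with 1 to 5. These were 313 peaks in 839 bins and 3605 peaks in 16144 bins, so per bin they were not fewer in crowded bins. The shares are taken of all RAD21 peaks, whose number per bin the rule set. Introns held 49.4% against 40.2%, exons 2.45% against 4.32%, and sequence outside coding genes 45.0% against 46.6%. The median distance to the nearest coding start was 80.3 kb against 49.4 kb.

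Of all 19970 coding genes, 505 or 2.53% started in a crowded bin, and families are read against that share with no test. Collagens, the fibrous proteins of the extracellular matrix, stood at 10 of 44, or 22.7%, in 9 bins. Besides COL4A1 and COL4A2 these were COL16A1, COL11A1, COL5A2, COL6A3, COL8A1, COL1A2, COL5A1 and COL1A1. The bin of COL1A2, for a chain of type I collagen, had 13 RAD21, 7 SA1 and 10 SA2 peaks and 1 peak in each RPE-1 list. That of COL1A1, the other chain, had 10, 5 and 7 in CHM13 and 4, 2 and 2 in RPE-1. COL5A2 and COL6A3 started in bins with 14 RAD21 peaks.

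Forkhead transcription factors stood at 6 of 52 in 4 bins. FOXF1, FOXC2 and FOXL1 shared 1 bin on chromosome 16, with 13 RAD21, 6 SA1 and 6 SA2 peaks in CHM13 and 4, 4 and 1 in RPE-1. FOXP1, FOXO3 and FOXR1 each started in a bin of their own. RAB GTPases, which direct vesicle traffic, stood at 5 of 63, and ribosomal proteins at 6 of 84. Solute carriers, at 7 of 337 or 2.08%, were near the background. WNT5A was the sole WNT ligand of 19.

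Of the 19 lists set at the start, 12 had no gene that started in a crowded bin. Among them were 400 olfactory receptors, 149 keratins and keratin-associated proteins, 76 replication-dependent histones and 39 HOX genes. Only ZNF474 of 508 ZNF genes did so. Of the 53 clustered protocadherins, cell-surface adhesion proteins, none started in a crowded bin. The 22 that overlapped one all overlapped the same bin, chr5:141500001-141600000. Of all 19970 coding genes, 847 overlapped a crowded bin. The lists of cohesin and its regulators (18 genes), trophoblast regulators (15), pigment epithelium genes (14), imprinted genes (17) and growth control genes (16) also had none. At the background share of 2.53%, lists this short would often have none, so these zeros tell little.

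A further 11 lists were added after the bins had been seen, so their counts only describe what was noticed. TGF-beta receptors, ligands and SMADs stood at 4 of 11 (TGFB2, TGFBR2, SMAD3 and SMAD7), and caveolins and cavins, the coat proteins of caveolae, at 3 of 7 (CAVIN2, CAV2 and CAV1). TEAD factors with their partners and targets stood at 3 of 11 (CCN1, AMOTL2 and CCN2), laminins at 2 of 12, AP-1 subunits at 2 of 10 (FOS and JUNB) and integrins at 2 of 26. Tropomyosins stood at 1 of 4 and ADAMTS proteases at 1 of 19, and thrombospondins and RUNX factors had none. SMAD7, an inhibitor of TGF-beta signalling, started in a bin with 17 RAD21, 3 SA1 and 4 SA2 peaks and no RPE-1 peak. ITGB6, an integrin subunit of epithelia, started in a bin with 17, 6 and 12 and with 1 RAD21 and 1 SA1 peak in RPE-1.

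Crowded bins lay beside other dense bins. Of the 839, 312 or 37.2% (34.0 to 40.5) adjoined another crowded bin, and they formed 662 runs, of which 527 were single bins, 102 pairs, 25 runs of 3, 7 of 4 and 1 of 5. These neighbours were counted in the list that chose the bins, so this is a description. At 100 kb on either side, RAD21 stood at 6.64 and 6.55 peaks per bin and 21.1% of neighbours were crowded. Neighbours of bins with 1 to 5 peaks held 2.76 and 2.78, and 2.24% and 2.20% of them were crowded. The mean fell to 5.26 and 5.36 at 200 kb, 3.61 and 3.64 at 500 kb and 3.19 and 2.96 at 1000 kb. RPE-1 RAD21 stood at 0.799 and 0.796 peaks per bin at 100 kb and 0.657 and 0.599 at 1000 kb. Bins with 1 to 5 peaks themselves held 0.634, and RPE-1 counts beside them are not given here.

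**Figure D4:**
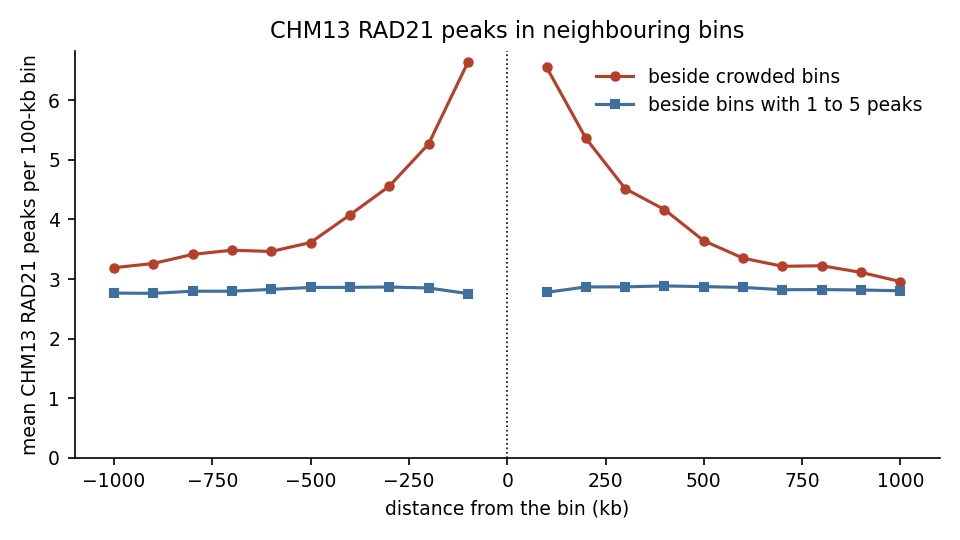
Mean CHM13 RAD21 peaks per 100-kb bin (y axis) at distances up to 1000 kb on either side (x axis) of crowded bins (circles) and of bins with 1 to 5 peaks (squares). The bins themselves are left out. The mean beside crowded bins is 6.64 and 6.55 at 100 kb and 3.19 and 2.96 at 1000 kb, while beside the comparison bins it stays between 2.76 and 2.88.

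The longest run, chr3:30200001-30700000, held 66 RAD21, 27 SA1 and 32 SA2 peaks in CHM13 cells over 5 bins and 4, 1 and 1 in RPE-1 cells. Its only coding gene was TGFBR2, a receptor for TGF-beta, which started in the last bin. Runs of 4 bins lay at IRF2BP2, CDC42EP3 and FN1, at TES with CAV2 and CAV1, at MAML2 with CCDC82 and JRKL, and at TPM1 with LACTB, RPS27L, RAB8B and APH1B. The run of 4 on chromosome 6, chr6:113300001-113700000, had no coding gene and held 57 RAD21 peaks. The FN1 run also held 57 RAD21 peaks, with 33 SA1 and 37 SA2 in CHM13 and 2, 2 and 1 in RPE-1.

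Every chromosome from 1 to 22 and X had crowded bins, at unequal rates. The shares were highest on chromosome 2 (97 bins, 4.0%, 3.29 to 4.86), chromosome 5 (3.85%), chromosome 3 (3.78%) and chromosome 11 (3.70%), whose intervals overlap. They were lowest on the X chromosome (6 bins, 0.384%, 0.176 to 0.836), then on chromosomes 16 (1.33%) and 22 (1.38%). The X chromosome also had the lowest RAD21 density, 12.1 peaks per Mb, against 19.8 to 31.1 on the others. Besides the DANT1/DANT2 and FIRRE bins, 3 of its crowded bins adjoined each other at FAM9C and LINC02154 and 1 held MIR222HG.

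Gene-rich chromosomes were not the most crowded. Chromosome 19, with 25.3 coding genes per Mb, had 10 crowded bins, or 1.70%, and chromosome 17, with 14.3, had 23, or 2.76%. Within chromosomes, the ratio of crowded bins to bins with 1 to 5 peaks was above 1 on 23 of 23 for SA1, SA2 and RPE-1 RAD21, on 22 for RPE-1 SA1 and on 21 for RPE-1 SA2. For coding gene starts it was above 1 on 3 of 23. On the X chromosome the RPE-1 ratios, 12.5 for RAD21, 7.48 for SA1 and 52.2 for SA2, rested on the DANT1/DANT2 and FIRRE bins.

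**Figure D5:**
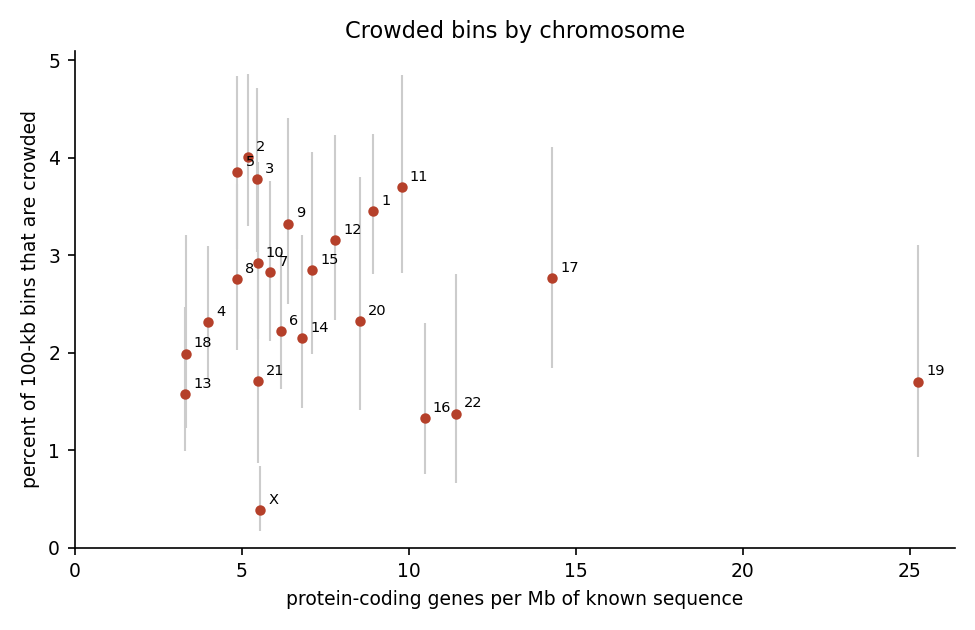
Percent of 100-kb bins that are crowded (y axis) by protein-coding genes per Mb of known sequence (x axis), 1 point per chromosome with 95% Wilson intervals in grey. Chromosome 2 stands highest at 4.0%, the X chromosome lowest at 0.384%, and chromosome 19 has the most genes per Mb with 1.70%.

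GC content differed little. It averaged 42.4% ± 4.70 (SD over 839 bins) in crowded bins and 41.6% ± 5.10 (SD over 16144 bins) in bins with 1 to 5, a difference of 0.804 percentage points (SE 0.167, over bins that are not independent). The RPE-1 RAD21 ratio within 4 GC classes of equal numbers of RAD21-bearing bins, from low to high, was 1.60, 1.31, 1.41 and 1.69. By coding gene starts in the bin it was 1.72 with 0, 1.59 with 1 and 2.15 with 2 or more, so crowded bins led at each level.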

How the data were processed

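The authors sequenced ChIP and input libraries, and per the labels used bcl2fastq 2.20, BWA, SAMtools and MACS2. Their methods describe calling peaks in each replicate with macs, merging replicates with the reduce function of GenomicRanges and dropping loci not found in multiple replicates, for CHM13 v1.0. How the hg38 lists were aligned is not given in the sources used here. The deposited lists hold the start and end of each peak in bp, with no count, height or p-value. The 6 lists on hg38 were used, and those on CHM13 v1.0 only as an alternative. Depth per library is not in the lists, though the paper reports it.

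Peaks were assigned to 100-kb bins by centre, and overlap meant at least 1 shared base. Genes came from GENCODE 44 and sequence from hg38. Rates have exact Poisson, ratios conditional exact and shares Wilson intervals at 95%. CTCF letters were planned, the other letters were added later. The narrower TGACTCA was taken for AP-1 after the values of TGANTCA had been seen. Genes named are those of the most crowded bins, of the longest runs, of bins highest in or empty of RPE-1 peaks or free of coding genes, and of the lists. The runs of 4, the X chromosome bins and the 11 added lists were named after their values were seen. Bins tied in RPE-1 RAD21 peaks were ordered by CHM13 RAD21 peaks, where genome order had been planned. Sequences are of peaks in the most crowded bins, 1 per bin, picked for a motif match except on the X chromosome. Of the added lists 1, and of the most crowded bins 1, are not reported here. The bins and gene lists were chosen with earlier results of these data known. Counting, overlap, interval and motif steps were tested on simulated data. Python 3.11.15, numpy 2.4.6, pandas 2.3.3, scipy 1.17.1, pysam 0.24.0, matplotlib 3.10.9 and samtools 1.23.1 were used.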

Additional observations from a re-analysis of the deposited data

How the results depend on the processing

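No paired analysis was possible because each list pools its replicates. For 8 results, 63 of 94 alternative values stayed within the counting interval of the reported value (within 1.5 times for the number of bins), 29 moved and 2 changed direction. The difference in GC content moved under none, with a range of 0.636 to 1.10. With 8 or more peaks there were 1957 crowded bins, with ratios of 2.47 (SA1), 3.21 (SA2) and 0.842 (coding starts), and 51.6% adjoined another. With 12 or more there were 338, with ratios of 3.34 (SA1), 4.34 (SA2) and 1.76 (RPE-1 RAD21), and 27.8% adjoined another. Bins of 50 kb with 5 or more peaks against 1 or 2 numbered 3222, with ratios of 1.90 (RPE-1 RAD21), 2.64 (SA1), 3.44 (SA2) and 0.894 (coding starts) and 41.6% adjoining. Joining peaks closer than 1 kb left 498 bins, 30.3% adjoining and 34.2% of RAD21 peaks with both SA1 and SA2. Asking SA1 and SA2 each to cover 50% of the RAD21 peak gave 21.7%. Against bins with 1 to 9 peaks the ratios were 1.46 (RPE-1 RAD21), 2.46 (SA1) and 3.02 (SA2), and the CHM13 v1.0 lists gave 1.82 for RPE-1 RAD21. Within the middle GC classes the RPE-1 RAD21 ratio was 1.31 and 1.41. All gene types gave 0.914, and lncRNA genes alone reversed the direction of the coding starts, at 1.34. Against bins with 6 to 9 peaks, chosen after seeing the data, the RPE-1 RAD21 ratio turned to 0.954 with an interval that includes 1, and SA1 and SA2 stood at 1.46 and 1.55. The DANT1/DANT2 and FIRRE bins are part of that ratio. Without them crowded bins held 1.01 RPE-1 RAD21 peaks per bin, against 1.09 in bins with 6 to 9, and no interval was computed for this. For other settings that moved a value the cause was not tested. Leaving out a replicate could not be done with pooled lists. List length and peak calling limit all counts.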
